A study of Mus musculus with 8 samples.

Results

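The glutathione and antioxidant defense genes of the mouse lung were taken from the array annotation by their symbols. They comprised every annotated symbol of a glutathione S-transferase (Gst with a class letter and a number), glutathione peroxidase (Gpx), peroxiredoxin (Prdx), superoxide dismutase (Sod) or thioredoxin reductase (Txnrd). Cat, Nqo1, Hmox1, Gclc, Gclm, Gsr, Gss, Srxn1 and Nfe2l2 were added by name. Prdx1 and Sod3 were not among the symbols found, so the Prdx and Sod families were not covered in full. The array held 49 such genes on 72 probes, of 20920 gene symbols and 41174 probes in all. All 49 genes were found in the RefSeq annotation, Prdx6-ps1 under the symbol Prdx6b. Of these, 48 genes with 70 probes were bright enough to be tested, and only Gstt4, whose 2 probes were mostly not above background, was not.

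The RNA came from whole lungs of untreated male C57BL/6 mice, 4 wildtype and 4 transgenic. The transgene placed mouse Scgb3a2, a small secreted protein of the airway, under the human SP-C promoter, which drives expression in type II alveolar cells, and the transgenic mice descended from a single founder. The age was 8 to 10 weeks by the labels. On each of 8 two-color arrays, 1 lung in Cy5 was set against pooled lung RNA in Cy3, with no dye swap, and the pool held equal amounts of the sample RNAs according to the methods. The 8 arrays lay on 4 slides, each with 1 array of each genotype, and by the file headers 2 slides were scanned on a first day and 2 on a second. Wildtype replicates 1 and 3 and transgenic replicates 1 and 4 belonged to the first scan day, and wildtype replicates 2 and 4 and transgenic replicates 2 and 3 to the second. The median spot in the sample channel had a signal of 204 to 277.5 over a local background of 55.5 to 59, 0 spots reached saturation, and outlier flags fell on 1.72% to 6.46% of the spots of each array. In whole lung RNA, fewer cells of a type and less RNA per cell cannot be told apart.

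Glutathione is made in a pair of steps from glutamate, cysteine and glycine. The first and limiting step is that of glutamate-cysteine ligase, with a catalytic subunit, Gclc, and a modifier subunit, Gclm. Transferases couple glutathione to electrophiles, peroxidases spend it to remove peroxides, and Gsr restores it with NADPH, while peroxiredoxins, thioredoxin reductases and Srxn1 form a parallel thiol route. NRF2, the product of Nfe2l2, switches on many of these genes under oxidative or electrophilic stress by binding antioxidant response elements in their regulatory regions.

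The letters of this element, TGACNNNGC, were searched on both strands from 250 bases before to 50 bases after each start in the RefSeq promoters of GRCm38.p6. They were present in 4071 of 32851 promoters (12.4%), and in 8 of 54 promoters of the 41 members that had an entry (14.8%), a share close to that of all promoters. The matches belonged to Gclm, Gsta3, Gstm5, Gstm7, Nfe2l2, Sod1, Srxn1 and Txnrd1. Hmox1, Gclc, Gsr, Gsta4, Gstt2, Prdx6, Prdx6-ps1 and Gpx2-ps1 had no entry. The windows of Gclm and Txnrd1 are shown because these genes are among those that differed between the scan days, and those of Gsta3 and Sod1 because they hold the same letters and their levels did not pass that test. The sequences run 5′ to 3′ on the strand of the gene, and the capitals mark the matched letters, which lie on the opposite strand in Gclm, Txnrd1 and Sod1.
Gclm, chr3:122245403-122245451, plus strand: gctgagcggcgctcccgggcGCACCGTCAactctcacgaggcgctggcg
Txnrd1, chr10:82859094-82859142, plus strand: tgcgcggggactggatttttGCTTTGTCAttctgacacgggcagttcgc
Gsta3, chr1:21240444-21240492, plus strand: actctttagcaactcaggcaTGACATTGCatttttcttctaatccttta
Sod1, chr16:90220686-90220734, plus strand: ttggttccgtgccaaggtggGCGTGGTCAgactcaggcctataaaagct
Counted from the start on which the promoter entry is placed, which for Gclm, Gsta3 and Txnrd1 is not the first base of the annotated gene, the match begins at -134 in Gclm, at -92 in Txnrd1, at -121 in Gsta3 and at -56 in Sod1. A match of letters is a description of the window and shows no binding.

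The antioxidant genes differed little between transgenic and wildtype lungs. Values are log2 ratios of lung over pool, so 0 is the level of the pool, and differences are transgenic minus wildtype. Over the 70 member probes the median difference was 0.02, beside 0.001 over all 32653 probes tested, with 37 probes above 0 and 33 below. By limma, a linear model with moderated variances, 0 member probes and 0 of all probes had an adjusted p under 0.05 (Benjamini-Hochberg over all probes tested). At an unadjusted p under 0.05 there were 4 member probes (5.71%), 2 higher and 2 lower, where 2.09% of all probes passed. The groups did not overlap for 2 member probes (2.86%), those of Gclc and Gstk1, beside 1.97% of all probes. Flags left Gclc with 2 values per genotype and Gstk1 with 2 wildtype and 3 transgenic values, and groups of fewer values separate more easily. Only Gclc passed 1.5-fold. The count of 4 fell to 1 without wildtype replicate 1 or without transgenic replicate 1, and to 2 without transgenic replicate 4.

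Scgb3a2, the gene that the transgene carries, was higher in transgenic lungs. How far its probe reads RNA of the transgene or of the native gene was not tested. The ratio of Scgb3a2 was 0.01, -0.39, 0.58 and -0.56 in wildtype replicates 1 to 4 and 1.26, 0.47, 0.70 and 0.74 in transgenic replicates 1 to 4, a difference of 0.88 (SE 0.24, unadjusted p = 0.0033 by limma). The groups overlapped at wildtype replicate 3 and transgenic replicate 2, and the exact permutation p was 0.0571, where 4 against 4 allow no less than 0.0286.

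**Figure D1:**
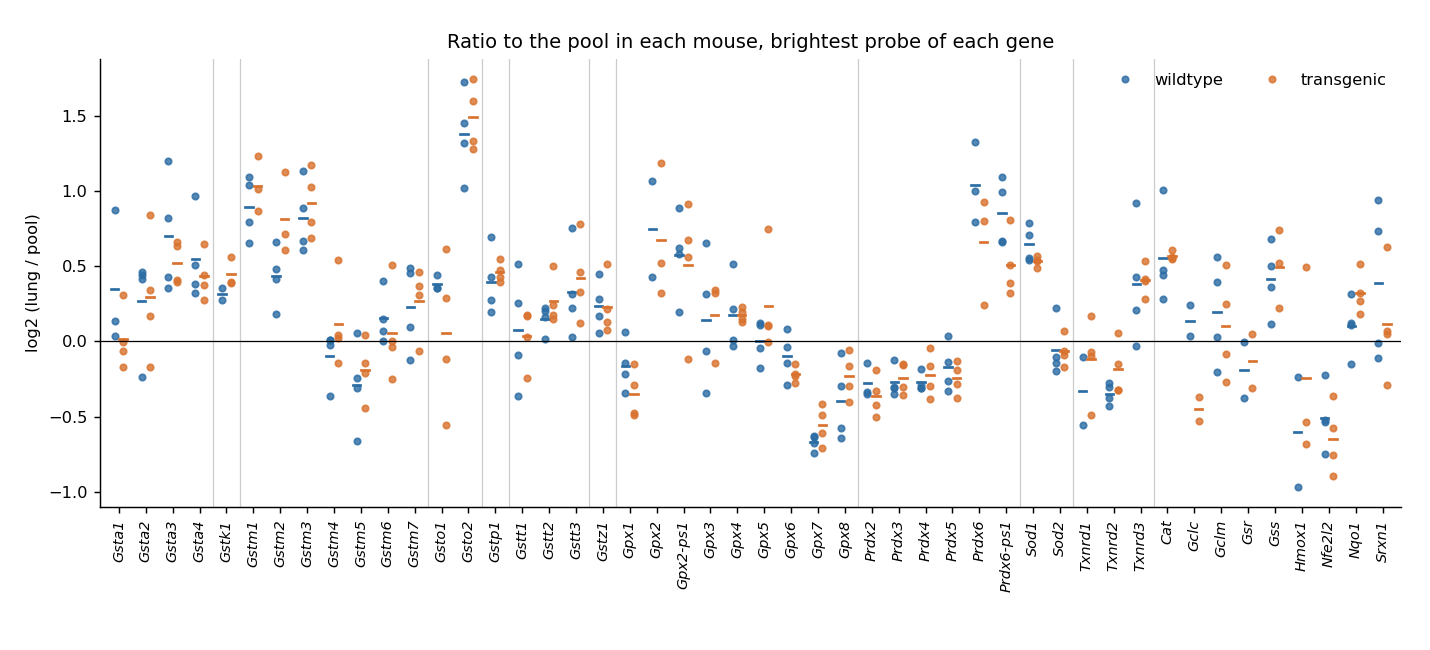
Log2 ratio of lung over pool (vertical axis) for the brightest tested probe of each of the 48 genes (horizontal axis, grouped by family), with a point for each mouse and a bar at the mean of each genotype. Gsto2 lies highest in all mice, and points missing from a column, as for Gclc and Hmox1, are outlier-flagged spots that were left out.

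Among the genes of glutathione synthesis, Gclc had the largest difference of all members. Its ratio was 0.03 and 0.24 in wildtype replicates 1 and 3 and -0.37 and -0.53 in transgenic replicates 1 and 4, a difference of -0.59 (SE 0.17, unadjusted p = 0.00862 and adjusted p = 1.0 by limma). Both transgenic lungs lay below both wildtype lungs, but the value rested on the first scan day alone, since all 4 spots of the second day were flagged. With the flagged spots kept, the ratios were 0.02, 0.51, 0.23 and 0.86 in wildtype and -0.37, 0.05, 0.57 and -0.57 in transgenic replicates 1 to 4, the groups overlapped, and the difference was -0.48 (unadjusted p = 0.0724 by limma). Gclm, the modifier subunit, was at -0.20, 0.56, 0.03 and 0.40 in wildtype and -0.08, 0.25, 0.51 and -0.27 in transgenic lungs, a difference of -0.10 (SE 0.20), and its other probe had the opposite sign at 0.11. Gss, which adds glycine in the last step, was at 0.12, 0.50, 0.36 and 0.68 in wildtype replicates 1 to 4 and at 0.74, 0.22 and 0.52 in transgenic replicates 1 to 3, a difference of 0.08 (SE 0.16). Its difference was 0.50 within the first scan day and -0.22 within the second. Gsr, the reductase, kept 4 values, -0.37 and -0.00 in wildtype replicates 1 and 4 and 0.05 and -0.31 in transgenic replicates 1 and 4, with full overlap of the groups.

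Nfe2l2 and the NRF2 targets named singly did not pass between genotypes apart from Gclc. Nfe2l2 was below the pool on every array, at -0.52, -0.53, -0.22 and -0.75 in wildtype and -0.89, -0.75, -0.58 and -0.36 in transgenic lungs, a difference of -0.14 (SE 0.14). Nqo1, a quinone reductase, was at -0.15, 0.32, 0.11 and 0.13 in wildtype and 0.27, 0.51, 0.32 and 0.18 in transgenic lungs, a difference of 0.22 (SE 0.12, unadjusted p = 0.0966 by limma), higher in the transgenic lung on 4 of 4 slides. Hmox1, which breaks down heme, had the widest spread within a genotype of all members, an SD of 0.60 at percentile 99.4 of all probes tested. Beside it stood a probe of Srxn1, also with an SD of 0.60. The unflagged values of Hmox1 were -0.97 and -0.23 in wildtype replicates 1 and 3 and -0.54, 0.50 and -0.68 in transgenic replicates 1, 3 and 4, a difference of 0.36 (SE 0.36). With the flagged spots kept, the difference turned to -0.41 (unadjusted p = 0.362 by limma). The second probe of Hmox1, a far dimmer one with values on all 8 arrays, had a difference of -0.15 (SE 0.12). Srxn1, which repairs over-oxidized peroxiredoxins, was at -0.11, 0.74, -0.01 and 0.94 in wildtype and 0.07, 0.05, 0.63 and -0.29 in transgenic lungs, a difference of -0.27 (SE 0.25). A dimmer probe of Srxn1 had a difference of -0.30 (SE 0.32) and was lower in the transgenic lung on 4 of 4 slides. With slide as a block it passed the unadjusted threshold (unadjusted p = 0.031 and 0 probes after adjustment by limma). The third probe gave 0.22 (SE 0.29). For Hmox1, Srxn1 and Gclm, with the flagged spots kept, the arrays above 0 lay mainly in the second scan day, as described below.

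The glutathione S-transferases were represented by 19 tested genes and 25 probes, of which 16 were above 0 in transgenic lungs and 9 below, with a median of 0.05. Of the 10 probes of the mu class (Gstm), 9 were above 0, with a median of 0.12, and of the 5 of the alpha class (Gsta) 4 were below 0, with a median of -0.11. Gstm2 was at 0.19, 0.42, 0.66 and 0.48 in wildtype replicates 1 to 4 and 1.13, 0.72 and 0.61 in transgenic replicates 1 to 3, a difference of 0.38 (SE 0.16, unadjusted p = 0.0339 and adjusted p = 1.0 by limma). It overlapped only where transgenic replicate 3 fell below wildtype replicate 3, and with the flagged spots kept the difference was 0.40. The probes of Gstm7 disagreed, with a difference of 0.29 (SE 0.12, unadjusted p = 0.0393 by limma) for the dimmer probe and 0.04 (SE 0.16) for the brighter. With slide as a block, since each slide held 1 array of each genotype, the dimmer probe of Gstm7 no longer passed (unadjusted p = 0.0564 by limma), being lower in the transgenic lung on 1 of 4 slides. Mu class genes are close in sequence, and how far a probe of Gstm2 or Gstm7 also binds its neighbors was not tested.

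Gsta1 was at 0.14, 0.87 and 0.03 in wildtype replicates 2 to 4 and -0.00, -0.06, 0.31 and -0.17 in transgenic lungs, a difference of -0.33 (SE 0.20). Wildtype replicate 3 alone stood above the transgenic range, and the difference was -0.96 within the first scan day and 0.04 within the second. Gstk1, the kappa class enzyme of mitochondria and peroxisomes, was at 0.36 and 0.27 in wildtype replicates 1 and 4 and 0.56, 0.39 and 0.39 in transgenic replicates 1, 2 and 4, without overlap. Its difference of 0.13 (SE 0.14) became 0.06 with overlapping groups when the flagged spots were kept. Gsto1, an omega class enzyme, was at 0.36, 0.36 and 0.44 in wildtype replicates 2 to 4 and 0.29, -0.12, 0.61 and -0.56 in transgenic lungs, a difference of -0.33 (SE 0.23). Gstp1, of the pi class, was at 0.19, 0.27, 0.69 and 0.43 in wildtype and 0.55, 0.47, 0.43 and 0.39 in transgenic lungs, a difference of 0.06 (SE 0.12). Gstt2, of the theta class, was at 0.02, 0.16, 0.21 and 0.22 in wildtype and 0.50, 0.24, 0.15 and 0.18 in transgenic lungs, a difference of 0.12 (SE 0.11). Gstz1, of the zeta class, was at 0.28, 0.17, 0.45 and 0.05 in wildtype and 0.51, 0.21, 0.13 and 0.07 in transgenic lungs, a difference of -0.01 (SE 0.13). The groups overlapped for Gstp1, Gstt2 and Gstz1.

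The tested peroxidases and dismutases were likewise close between genotypes. Of 9 Gpx probes 4 were above 0, and the largest difference was that of Gpx5, best known from the epididymis, at 0.24 (SE 0.16), with 0.12, 0.11, -0.04 and -0.17 in wildtype and 0.75, -0.01, 0.10 and 0.11 in transgenic lungs. Transgenic replicate 1 alone stood above the other mice for Gpx5. Its probe was near background, with a raw lung signal of 71 to 139 beside a median local background of 55.5 to 59. It was well above background in 4 wildtype and 3 transgenic lungs. Of 12 Prdx probes 8 were below 0, with a median of -0.06. Prdx6, a peroxiredoxin abundant in lung that also has phospholipase activity, was at 1.00, 1.33 and 0.79 in wildtype replicates 1, 3 and 4 and 0.25, 0.93 and 0.80 in transgenic replicates 1, 3 and 4, a difference of -0.38 (SE 0.20, unadjusted p = 0.0927 by limma). With the flagged spots kept it was -0.39 (unadjusted p = 0.0409 by limma). The other probes of Prdx6 gave -0.01 and -0.18.

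Prdx6-ps1 carries a pseudogene symbol in the array annotation and is Prdx6b in RefSeq. Whether its probes also bind Prdx6 RNA was not tested. Prdx6-ps1 was at 1.09, 0.66, 1.00 and 0.67 in wildtype and 0.39, 0.51, 0.81 and 0.32 in transgenic lungs, a difference of -0.35 (SE 0.14, unadjusted p = 0.03 by limma). Only transgenic replicate 3 reached the wildtype range. The difference was -0.69 within the first scan day and -0.01 within the second. Markers of type II cells, which are rich in Prdx6, had 12 of their 13 probes below 0 in transgenic lungs and a median difference of -0.50. Those of adipose tissue had 10 of 10 below 0 with a median of -0.39, and those of cardiac muscle 10 of 11 with a median of -0.42. In each of these lists 4 probes were lower at an unadjusted p under 0.05 by limma, where 0.974% of all probes were. Over all probes 50.4% were above 0. Markers of type I cells had 6 of 7 below 0, those of club cells of the airway 3 of 4 and those of skeletal muscle 9 of 12. Markers of ciliated cells had 9 of 9 above 0 and those of endothelium 6 of 8. The mean log2 ratio of the type II probes was 0.14 to 1.12 in wildtype and -0.25 to 0.36 in transgenic lungs, that of the adipose probes 0.32 to 0.93 and -0.57 to 0.42, and that of the cardiac probes 0.25 to 0.77 and -0.25 to 0.35. The part of these cells in the difference of Prdx6 was not tested.

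Sod1, the cytosolic dismutase, was at 0.71, 0.56, 0.79 and 0.54 in wildtype and 0.54, 0.54, 0.57 and 0.49 in transgenic lungs, a difference of -0.12 (SE 0.10). Cat, which breaks down hydrogen peroxide, was at 0.48, 0.44, 1.00 and 0.28 in wildtype and 0.61, 0.55, 0.56 and 0.55 in transgenic lungs, a difference of 0.02 (SE 0.14). The transgenic lungs lay within the wildtype range for Cat, and for Sod1 they lay at or just below its lower end except for replicate 3. Txnrd1, the cytosolic thioredoxin reductase, was at -0.56 and -0.10 in wildtype replicates 1 and 3 and -0.07, -0.09, 0.17 and -0.49 in transgenic replicates 1 to 4, a difference of 0.21 (SE 0.20), which turned to -0.06 with the flagged spots kept. After Hmox1 and Srxn1, the widest spreads within a genotype among the brightest probes were those of Gpx2, Gsto1 and Gsta2, with SDs of 0.45, 0.39 and 0.38, where the median member had 0.23.

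**Figure D2:**
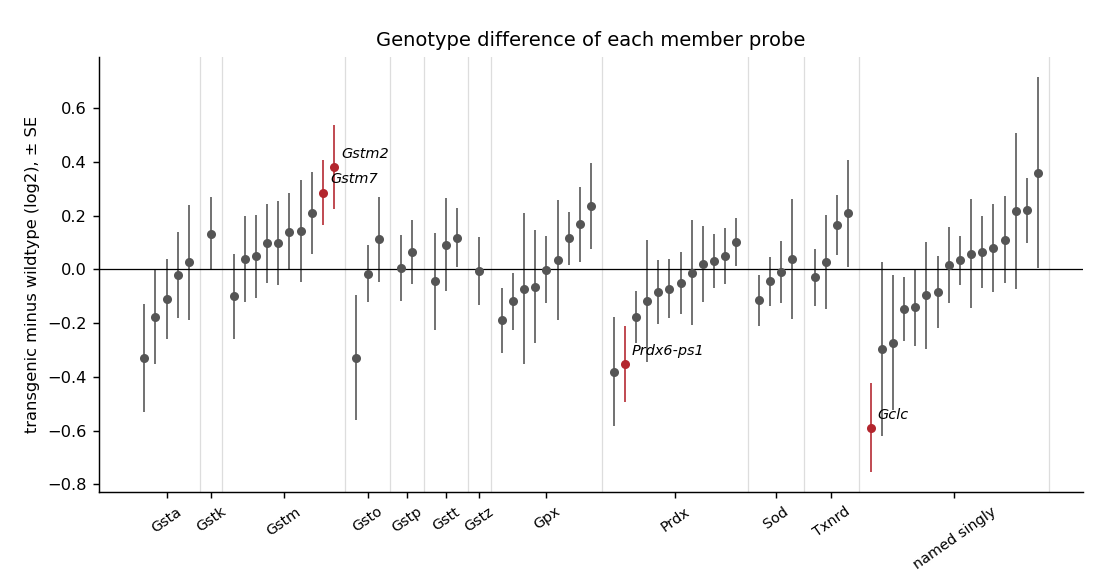
Transgenic minus wildtype difference in log2 ratio (vertical axis) with its standard error from limma, for the 70 member probes by family (horizontal axis). Red points have an unadjusted p under 0.05, and no point has an adjusted p under 0.05.

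Other genes of these pathways were compared between genotypes in the same way, where 2.09% of all probes passed an unadjusted p under 0.05 and 0 passed after adjustment. Of the 32 tested probes for glutathione supply and NADPH 1 was higher at that threshold, that of Ggt5, a gamma-glutamyl transferase, at 0.24 (SE 0.09). Of the 32 for thioredoxin and thiol repair 3 were lower, 2 of Sesn1, a sestrin, and 1 of the metallothionein Mt1. Of the 44 for NRF2 control and other targets, Osgin1 was lower by limma at -0.39 (SE 0.11, unadjusted p = 0.00564), without overlap of the groups, and Bach2 was higher. Of the 26 for oxidant sources 0 passed. The medians of these lists lay between -0.04 and 0.03, beside 0.001 over all probes.

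Hmox1, Srxn1, Gclc, Gsta2, Gclm, Txnrd1 and Nqo1 were higher in the lung RNA on the arrays of the second scan day than on those of the first. The pool on the same arrays differed with the same sign and by less for each of these genes. The comparison was chosen after the data had been seen. Each color channel was taken on its own, background-corrected and quantile-normalized between arrays, with flagged spots kept because the flags fell mainly on one day for these genes, and levels are log2 intensities. Each day held 2 wildtype and 2 transgenic arrays, so the genotypes were balanced, and genotype was a term of the model in the lung channel. In that channel 10 of 70 member probes (14.3%), of 7 genes, were higher on the second day by limma at an adjusted p under 0.05 and more than 1.5-fold, where 1.38% of all 33978 probes passed. A single member probe, of Prdx6, was lower, where 1.32% of all probes passed. In the pool channel 9 of 70 member probes (12.9%), again of 7 genes, were higher, where 0.983% of all probes passed, and 0 were lower, where 1.03% passed, with 7 probes higher in both channels. Without wildtype replicate 4, transgenic replicate 2 or transgenic replicate 3, the count of 10 in the lungs fell to 6, and without each array in turn the count of 9 in the pool was 9 or 10. The single lower probe did not pass without any of 7 of the 8 arrays, and without transgenic replicate 4 there were 2.

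Hmox1 moved furthest of the members in the lung channel. Its raw signal in the lung channel was 1529, 2350.5, 1602 and 2332.5 on the arrays of the first day (wildtype replicates 1 and 3, transgenic replicates 1 and 4) and 32917.5, 28465.5, 13182.5 and 15405 on those of the second (wildtype replicates 2 and 4, transgenic replicates 2 and 3). In the pool channel of the same arrays it was 2808.5, 3704, 3359 and 3339 on the first day and 13998, 13704.5, 14581.5 and 14910 on the second. No array of a day reached the range of the other day in either channel. After normalization the level of Hmox1 was 11.01 ± 0.27 (SD, n = 4) on the first and 14.21 ± 0.54 (SD, n = 4) on the second day in the lungs, a difference of 3.20 (SE 0.20, adjusted p = 0.000421 by limma), or 9.20-fold. In the pool the difference was 1.83 (SE 0.09, adjusted p = 1.64e-05 by limma), or 3.56-fold. The second probe of Hmox1, which was far dimmer at a mean level of 6.25 on the first day, differed by 0.24 (SE 0.14) in the lungs and 0.11 (SE 0.08) in the pool. Among all probes, the brighter probe of Hmox1 ranked 5 in the lungs and 20 in the pool. Genes outside the rule moved further in both channels, Arl4d by 5.62 in the lungs and 5.24 in the pool and Tmem165 by 4.85 and 4.25.

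Among the members, Srxn1 followed with all of its 3 probes. Its brightest probe was at 11.03, 10.70, 11.14 and 10.49 on the 4 arrays of the first day and 13.09, 13.31, 12.40 and 13.08 on those of the second in the lungs, a difference of 2.13 (SE 0.20, adjusted p = 0.00321 by limma). The other probes differed by 3.05 and 2.79. In the pool the differences of the 3 probes were 1.42, 2.10 and 1.98, in the same order. The days did not overlap for any of the 3 in either channel.

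Both subunits of glutamate-cysteine ligase were higher on the second day. Gclc was at 11.41, 11.52, 10.93 and 10.97 on the first and 13.16, 13.26, 12.80 and 13.17 on the second day in the lungs, a difference of 1.89 (SE 0.12, adjusted p = 0.000476 by limma), or 3.70-fold, and the pool differed by 1.19 (SE 0.09). The probes of Gclm differed by 1.05 (SE 0.15) and 1.01 (SE 0.11) in the lungs and by 0.47 (SE 0.14) and 0.66 (SE 0.08) in the pool. The pool difference of the brighter Gclm probe did not pass the adjusted threshold, at 0.0572, and its days overlapped there.

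The detoxifying enzymes and reductases among the members showed smaller differences of the same sign. Gsta2, an alpha class transferase, differed by 1.40 (SE 0.19, adjusted p = 0.0121 by limma) in the lungs and 1.06 (SE 0.08) in the pool. Txnrd1 differed by 0.94 (SE 0.16, adjusted p = 0.0238 by limma) in the lungs and 0.47 (SE 0.07) in the pool. Nqo1, a dim probe here, was at 6.97, 7.21, 7.44 and 7.41 on the first and 7.63, 7.79, 8.08 and 7.88 on the second day in the lungs, a difference of 0.59 (SE 0.11, adjusted p = 0.0292 by limma), and 0.44 (SE 0.09) in the pool. In the lungs Nqo1 barely passed 1.5-fold, at 1.502-fold. With 1 array left out, the adjusted p by limma in the lungs reached 0.11 for Nqo1 and 0.0892 for Txnrd1. The pool differences of Nqo1 (1.35-fold) and Txnrd1 (1.38-fold) did not pass 1.5-fold. Gpx2, a peroxidase of epithelia, and Gpx2-ps1, annotated as its pseudogene, differed by 0.74 (SE 0.07) and 0.89 (SE 0.07) in the pool at adjusted p of 0.000409 and 0.000115 by limma. Whether the probes bind each other's RNA was not tested. In the lungs they differed by 0.71 (SE 0.22) and 1.00 (SE 0.24) and did not pass.

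**Figure D3:**
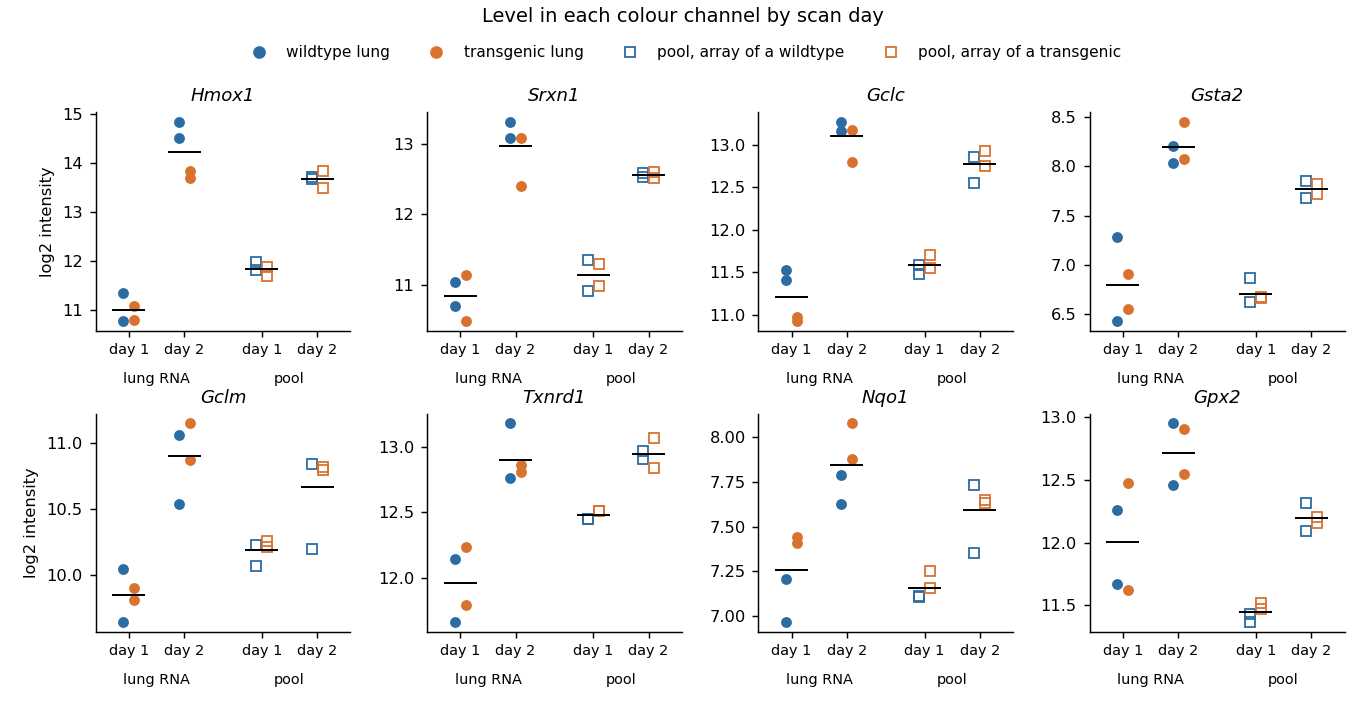
Log2 intensity (vertical axis of each panel) of 8 members on the arrays of each scan day, for lung RNA (filled circles) and for the pool on the same arrays (open squares), colored by the genotype of the lung on the array, with bars at the mean of 4 arrays. In 7 of the 8 panels, all but that of Gpx2, the lungs of the second day lie above every lung of the first, and the pool separates by day for all but Gclm.

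Most members did not pass. The median difference between days over the 70 member probes was 0.03 in the lungs and 0.08 in the pool, beside 0.01 and 0.003 over all probes. None of the probes of Nfe2l2 passed in either channel. Lower on the second day were a dimmer probe of Prdx6, by -0.79 (SE 0.16, adjusted p = 0.0351 by limma) in the lungs and -0.30 (SE 0.12) in the pool, and a probe of Prdx6-ps1, by -0.88 (SE 0.22) and -0.58 (SE 0.10), which did not pass 1.5-fold in the pool or the adjusted threshold in the lungs. The brightest probe of Prdx6 had the opposite sign, at 0.13 (SE 0.15) in the lungs and 0.11 (SE 0.11) in the pool, and did not pass in either channel.

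Among genes of the same pathway outside the rule, a minority of probes passed. Of 33 probes for glutathione supply and NADPH 9 were higher on the second day in the lungs and 3 in the pool, and of 44 for NRF2 control and other targets 5 and 3 were, where 1.38% of all probes passed in the lungs and 0.983% in the pool. Slc7a11, the cystine transporter that supplies cysteine for glutathione, differed by 2.57 (SE 0.15), 1.97 (SE 0.14) and 1.14 (SE 0.15) on the 3 of its 4 probes that passed in the lungs and by 1.90, 1.33 and 0.74 on these in the pool. Its other probe differed by 0.39 (SE 0.12) in the lungs and 0.25 (SE 0.07) in the pool and did not pass in either. The other probes of the supply list that passed in the lungs were those of the exporter Abcc1 (3 probes), Pgd (2 probes), an enzyme that makes NADPH, and Chac1, which breaks glutathione down. Osgin1, Esd and Sqstm1 were the genes of the NRF2 list with a probe that passed in the lungs. Of 33 thioredoxin and repair probes 0 were higher in the lungs and 1 in the pool, and of 26 oxidant source probes 0 were in either.

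**Figure D4:**
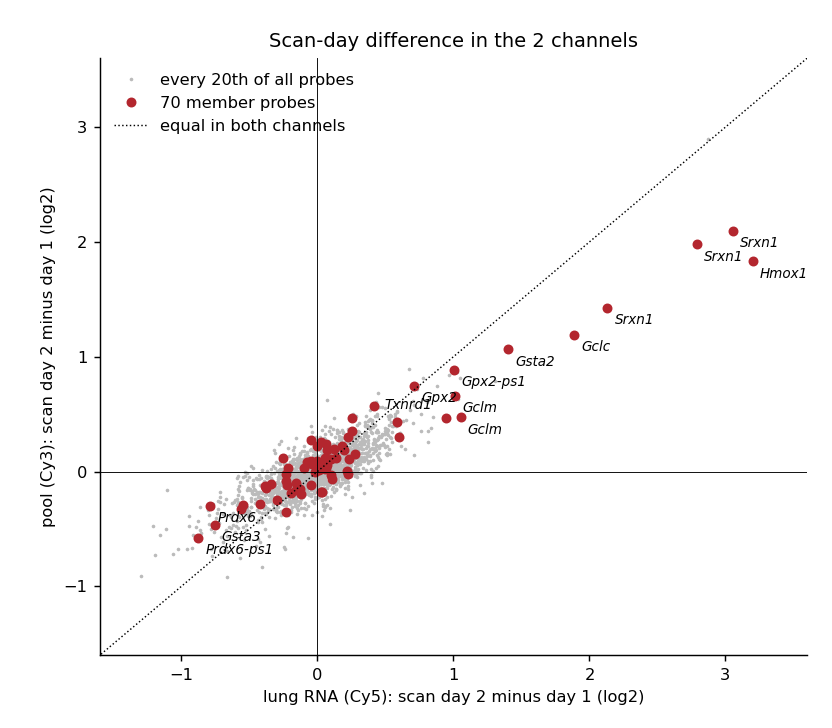
Difference between scan days in the lung channel (horizontal axis, log2) and in the pool channel (vertical axis, log2) for the 70 member probes (red) and every 20th of all probes (grey), with the line of equal difference dotted. Hmox1, Srxn1, Gclc, Gsta2, Gclm and Txnrd1 lie to the upper right and below the line, so their difference was larger in the lungs than in the pool.

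Since the difference was larger in the lungs than in the pool, part of it remained in the ratios. With flagged spots kept and genotype in the model, the ratio of Hmox1 was higher on the second day by 1.28 (SE 0.21), that of Srxn1 by 0.67 to 0.97 on its 3 probes, that of Gclc by 0.67 (SE 0.14), those of Gclm by 0.57 (SE 0.11) and 0.44 (SE 0.09), and that of Txnrd1 by 0.45 (SE 0.15). At an unadjusted p under 0.05 by limma 9 member probes (12.9%) were higher, where 4.99% of all probes passed, and 4 were lower, where 5.71% passed, and 0 passed the adjusted threshold, where 0.0118% of all probes passed. Outlier flags fell on the second day for Gclc (4 of 4 arrays), Hmox1 (3 of 4), Txnrd1 (2 of 4) and a dimmer probe of Srxn1 (2 of 4). Each of these had 0 flags on the first day, so leaving out flagged spots removed all or part of their second-day values. Both probes of Gclm and the other probes of Srxn1 had 0 flags on either day.

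Within a day the genotypes could be compared only as 2 against 2. In the lung channel the transgenic minus wildtype difference of Hmox1 was -0.12 within the first day and -0.90 within the second, and with scan day as a block, an alternative added after the data were seen, it was -0.51 (unadjusted p = 0.0294 by limma). For Gclc the values were -0.52 and -0.23, and -0.37 with the block (unadjusted p = 0.0141 by limma). For the brightest probe of Srxn1 they were -0.05 and -0.46, and -0.25 with the block (unadjusted p = 0.245 by limma). Neither Hmox1 nor Gclc passed adjustment over all probes, where 0 passed.

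Scan day is what the headers give, and slide, hybridization and labeling cannot be told apart from it. Whether the pool used on both days was the same preparation is not given in the sources used here. The p-values of the pool channel measure the spread between hybridizations of pooled RNA and not between mice. In both channels the model took the 4 arrays of a day as separate, though they lay on 2 slides, and held no term for slide. The SEs and p-values of the scan day comparison can therefore be too small. Cardiac muscle markers were also higher on the second day, with medians of 0.95 in the lungs and 0.89 in the pool over 11 probes, of which 3 and 9 passed, and so were 3 of 12 skeletal muscle probes in each channel. The mean level of the cardiac list was 9.86 to 10.89 on the first and 11.07 to 11.15 on the second day in the lungs. The median differences of the neutrophil and macrophage lists were -0.11 and 0.10 in the lungs, with 0 probes passing in either. The part of these cells in the difference of the antioxidant genes was not tested.

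Against the pool, the transferases stood mostly above it in lungs of both genotypes. Of the 70 member probes 47 (67.1%) had a mean ratio above 0, beside 51.2% of all probes tested. Among the 25 transferase probes 24 did, all but that of Gstm5. By limma at an adjusted p under 0.05 and more than 1.5-fold, 10 member probes (14.3%) were above the pool, where 5.87% of all probes passed, and 1 (1.43%) was below, where 4.72% passed. Every array carried the pool in Cy3, so a difference of the pool and a difference of the dyes cannot be told apart, and the test leaves out the spread of the pool. According to the methods the pool held equal amounts of the sample RNAs, so a level above or below it is not by itself a trait of the lungs.

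Gsto2, which reduces dehydroascorbate, was furthest above, at 1.32, 1.02, 1.73 and 1.45 in wildtype and 1.75, 1.28, 1.60 and 1.33 in transgenic lungs, a mean of 1.43 (SE 0.08) or 2.70-fold. Its other probe gave 0.29 (SE 0.05), the widest gap between probes of a member. Gstm1 followed with 0.97 (SE 0.07), Gstm3 with 0.87 (SE 0.07), Prdx6 with 0.85 (SE 0.10) and Gpx2, on 5 unflagged arrays, with 0.71 (SE 0.14). Gstm1 ranged from 0.65 to 1.23 and Gstm3 from 0.61 to 1.17, so all arrays with a value lay above the pool. The remaining probes above the threshold were those of Prdx6-ps1, Gstm2, Gsta3, Sod1 and a second probe of Gstm1. Sod1, at 0.59, lay just inside 1.5-fold, and Cat, at 0.56, just outside.

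Gpx7, a peroxidase of the endoplasmic reticulum, was the member below the pool, at -0.63, -0.63, -0.74 and -0.67 in wildtype and -0.71, -0.49, -0.42 and -0.61 in transgenic lungs, a mean of -0.61 (SE 0.05). Nfe2l2 came next at -0.58 (SE 0.07), short of 1.5-fold. All probes of Prdx2 and Prdx3 had means below 0, from -0.44 to -0.09. Within the first scan day alone 14 member probes were above and 3 below, and within the second 7 and 1. With each array centered on its median in place of loess, the split turned to 4 above and 5 below. Without wildtype replicate 3 it was 6 above and 3 below, without transgenic replicate 3 there were 3 below, and without transgenic replicate 4 there were 2. Among 17 genes with several tested probes, the median gap between probes was 0.34, and 4 genes had probes on both sides of 0.

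**Figure D5:**
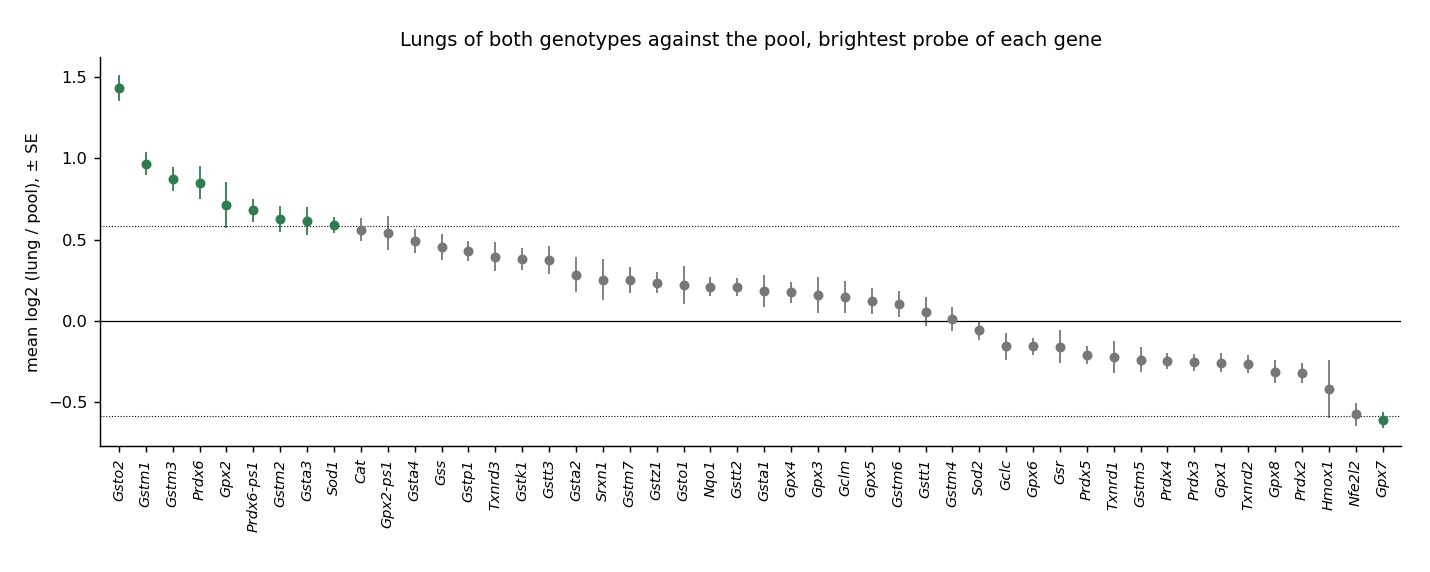
Mean log2 ratio of the 8 lungs over the pool (vertical axis) with its standard error from limma, for the brightest tested probe of each of the 48 genes (horizontal axis), in descending order. Green points passed an adjusted p under 0.05 and the 1.5-fold lines (dotted), and Gsto2 at 1.43 and Gpx7 at -0.61 mark the ends.

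Cell markers departed from the pool as well. By the same thresholds, 3 of the 4 tested marker probes of club cells, the secretory cells of the airway, were above the pool, where 5.87% of all probes were. The median of the club probes was 0.93. Of 9 macrophage probes 6 were below it, with a median of -0.96, where 4.72% of all probes were. Of 10 erythroid probes 4 were above it, and of 10 neutrophil probes 3 were below and 1 above. The mean log2 ratio of the club markers ranged from 0.85 to 1.67 in wildtype and 0.71 to 1.35 in transgenic lungs. No defining marker of club or macrophage cells was at background on all arrays apart from 1 macrophage probe, and the part of these cells in the ratios of the members was not tested.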

How the data were processed

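Per the file headers, the authors scanned the arrays and extracted spots with Agilent Feature Extraction 10.10.1.1 (11.0.1.1 per the labels). The deposited scanner files held intensity values, raw and processed, and a log10 ratio, and the authors' matrix held log2 ratios. Median intensities were corrected with normexp (offset 50, fitted on unflagged spots), control and flagged spots were removed, loess was applied within arrays, and spots of a probe were averaged (limma 3.58.1, R 4.3.3). Probes well above background in Cy5 on at least 4 of 8 arrays with at least 2 values per genotype, 32653 in all, were tested with lmFit and eBayes, with Benjamini-Hochberg adjustment over all of them. The script was tested on simulated data. The brightest probe stood for a gene. Every member named singly, the largest difference in each family, members at an unadjusted p under 0.05 or without overlap, those furthest from the pool and those with the widest spread were named. Members and lists were chosen with earlier results of these data known. Each animal gave 1 array, so precision is limited by how many arrays there are. Other settings are given under the dependence on processing.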

Additional observations from a re-analysis of the deposited data

Results flagged for a closer look

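Among 40 groups of 4 mice, 1 mouse stood far from the other 3 in 2 groups, where chance alone gives about 1 in 20. Gpx5, on a probe near background, was at 0.75 (log2 ratio to the pool) in transgenic replicate 1, and the other transgenic lungs were between -0.01 and 0.11. Gsta2 was at -0.23 in wildtype replicate 1, and the other wildtype lungs were between 0.41 and 0.46.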

How the results depend on the processing

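No member probe had an adjusted p under 0.05 between genotypes by limma under any alternative. The 4 member probes at an unadjusted p under 0.05 became 2 with a normexp offset of 0, with normexp fitted on all spots, in the authors' matrix and in the sample channel alone, and were 1 to 5 with 1 array left out. The median difference of the members stayed between -0.06 and 0.07. Over the lists of other genes, 24 probes passed the unadjusted threshold, and 8 did in the sample channel alone, 11 there with scan day as a block, 12 by the methods' t-test, 38 on the first scan day alone and 18 to 39 with 1 array left out. Against the pool, the 10 probes above became 4 with median-centring, 6 with array weights and 6 to 11 with 1 array left out. The 1 below became 0 with normexp on all spots, 2 with processed signals, in the authors' matrix or with flagged spots kept, 5 with median-centring, 3 on the first scan day alone and 1 to 3 with 1 array left out. Between scan days, the 10 higher in the lungs were 6 to 11 with 1 array left out, the 1 lower became 0 with flagged spots left out or processed signals and was 0 to 2, and in the pool the 9 higher were 9 to 10 and the 0 lower became 1 with median-centring and 0 to 1. With the replicate number as a block, 4 members passed the unadjusted threshold, of which only Prdx6-ps1 was among the 4 without the block (Gclc, Gstm2 and Gstm7 were lost and Gpx2, Gsta1 and Hmox1 gained), the list probes were 42, and Scgb3a2 differed by 0.88. Same-numbered mice correlated at 0.32, 0.25, -0.08 and -0.21, so the numbers do not pair the samples. Mice on the same slide correlated at 0.32, 0.25, 0.30 and 0.07, and with slide as a block Gstm7 was lost and a probe of Srxn1 gained. The scan day alternatives were chosen after seeing the data, and the cause of these changes was not tested.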
